A study of Mus musculus with 36 samples.

Results

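The genes described are the 7 of the carnitine shuttle and of carnitine uptake: Cpt1a, Cpt1b, Cpt2, Slc25a20, Slc22a5, Crat and Crot. They were picked out of the tables by gene symbol, with earlier results of these data known, and each symbol had 1 row among the 33495 genes of the liver table and 1 row among the 37991 of the kidney table. RNA was sequenced from both tissues of male C57BL/6 NIA mice aged 12 months, all first accustomed to an AIN-93M control diet. One group stayed on that diet (10% protein, 12% fat and 78% carbohydrate by energy). A second was moved for 1 week to a high-fat diet that is not ketogenic (10% protein, 75% fat and, as its label gives it, 10% carbohydrate), and the last for 1 week to a ketogenic diet (10% protein, 90% fat). Tissue was taken at night, in the feeding period. For liver and for kidney there were 5 libraries from the control, 6 from the high-fat and 7 from the ketogenic group, numbered from 0, so that 36 were used in all.

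Long-chain fatty acids cannot cross the inner mitochondrial membrane as acyl-CoA. At the outer membrane a carnitine palmitoyltransferase 1 moves the acyl group onto carnitine, the carrier Slc25a20 takes the acylcarnitine across the inner membrane in exchange for free carnitine, and Cpt2 rebuilds acyl-CoA on the matrix side for beta-oxidation. The first step is held back by malonyl-CoA, the product of acetyl-CoA carboxylase, and is a main point of control over ketone body production in liver. Carnitine itself is made in liver, is taken up into cells by Slc22a5, and is reclaimed from the filtrate by that transporter in the kidney tubule.

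Liver libraries held 18.87 to 35.92 M counts and kidney libraries 25.37 to 47.04 M counts. Mitochondrial transcripts took 49.67% to 71.68% of liver counts and 68.32% to 79.7% of kidney counts, which left 7.168 to 14.568 and 6.482 to 11.909 M counts of other genes per library. The mitochondrial share averaged 59.6% ± 6.77 on the control, 60.5% ± 3.65 on the high-fat and 64.2% ± 5.32 on the ketogenic diet in liver, and 71.5% ± 2.42, 74.1% ± 3.38 and 73.8% ± 2.05 in kidney (SD, n = 5, 6 and 7). The tissue labels matched the marker genes. All 8 hepatocyte markers were measured in liver, where albumin (Alb) stood at 21516 CPM or above in every library, against at most 15.3 CPM in kidney. Not all of them were confined to liver, since Cyp2e1 ranged from 307 to 785 CPM and Apob from 158 to 379 CPM in kidney. All 8 proximal tubule markers and all 7 markers from the loop of Henle to the collecting duct were measured in kidney. Of these, Slc34a1, Slc5a12, Slc22a6, Umod, Slc12a1 and Aqp2 had 0 counts in all 18 liver libraries. Of the proximal tubule markers, Aqp1 (8.19 to 18.2 CPM) and Slc13a3 (2.78 to 9.38 CPM) were present in every liver library. CPM is the count of a gene per M counts in the tested genes, after scaling by TMM factors. These are bulk samples, so fewer cells of a type and less RNA per cell cannot be told apart. The labels do not state that each library is a separate mouse, and the p-values measure the spread between these libraries.

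In mm9 coordinates, as the kidney table gives them, Cpt1a lies on chromosome 19 at 3323301 to 3385732 on the plus strand and Slc25a20 on chromosome 9 at 108564429 to 108586972, also on the plus strand. The other genes lie on the minus strand. Cpt1b is on chromosome 15 at 89246836 to 89256294, Cpt2 on chromosome 4 at 107576586 to 107596215 and Slc22a5 on chromosome 11 at 53678044 to 53705162. Crat is on chromosome 2 at 30255991 to 30271333 and Crot on chromosome 5 at 8966033 to 8997324. Counts are of reads over the exons of each gene. As annotated for kidney, 81.4% of the exon bases of Cpt1b are also given to the gene Chkb on the same strand, and Cpt1b had 1 to 9 counts per kidney library. It did not pass the filter on low counts and was not tested within the kidney, and the division of reads between these genes is uncertain there. In the liver table the span of Chkb does not touch Cpt1b. Of the exon bases of Crat in the kidney table, 1.1% are shared with Dolpp1 and 7.6% with Gm16323, both on the other strand and both with far fewer counts.

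The stretch before the start site is shown for Slc25a20, the gene called in kidney, and for Cpt1a and Slc22a5. These had the smallest p of the 7 genes in liver between the ketogenic and control diets. Cpt2 in kidney had a smaller p than either of them, and its stretch is not shown. The sequences are those of RefSeq in GRCm38.p6, a later build than that of the tables, and cover the 250 bases before the start site, 5′ to 3′ on the strand of the gene. Of the 7 genes, 5 had an entry in the table of promoters used (Cpt1a, Cpt2, Slc25a20, Slc22a5 and Crot). Capitals mark an exact match on either strand to AGGTCA, the half-site of the nuclear receptor family that includes the fatty acid receptor PPAR alpha.
Slc25a20, chr9:108661886-108662135, plus strand: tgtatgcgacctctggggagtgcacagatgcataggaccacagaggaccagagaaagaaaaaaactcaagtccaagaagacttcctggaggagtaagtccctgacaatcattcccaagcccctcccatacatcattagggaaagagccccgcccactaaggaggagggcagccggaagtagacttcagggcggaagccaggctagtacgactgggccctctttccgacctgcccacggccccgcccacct
Cpt1a, chr19:3323051-3323300, plus strand: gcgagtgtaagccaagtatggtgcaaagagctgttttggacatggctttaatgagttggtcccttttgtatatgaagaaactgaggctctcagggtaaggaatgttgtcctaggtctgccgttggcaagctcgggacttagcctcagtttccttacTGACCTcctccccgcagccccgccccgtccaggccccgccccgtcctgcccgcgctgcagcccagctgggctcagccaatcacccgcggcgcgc
Slc22a5, chr11:53891704-53891953, minus strand: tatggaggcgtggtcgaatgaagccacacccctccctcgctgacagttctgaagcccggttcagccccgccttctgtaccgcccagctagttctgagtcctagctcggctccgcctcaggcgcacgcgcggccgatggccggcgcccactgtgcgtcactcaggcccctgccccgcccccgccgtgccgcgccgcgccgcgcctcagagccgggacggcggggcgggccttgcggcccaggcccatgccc

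Each window of 300 bases (250 before the start site and 50 after it) was searched on both strands for AGGTCA, 1 base of any kind and AGGTCA again, the paired half-sites that PPAR and RXR bind, allowing 2 mismatches over the 12 fixed letters. Slc25a20 held 1 such match and the windows of Cpt1a, Cpt2, Slc22a5 and Crot held 0. The match lies 7 to 19 bases after the start site of Slc25a20, on the strand of the gene, with 2 mismatches, and stands in capitals with 8 bases on either side.
Slc25a20, chr9:108662142-108662154: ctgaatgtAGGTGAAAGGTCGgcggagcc

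Of 32851 promoter windows of the same length, 3.86% held a match to the paired motif within 2 mismatches and 16.3% held at least 1 exact half-site. The half-site was found in 1 of the 5 windows, that of Cpt1a, at bases -94 to -89 from the start site, on the other strand. A match of letters describes the sequence and is not a measured binding site, and a window with no match says only that these letters are not in it.

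On the control diet, levels of the genes within a tissue spread over more than 2 orders of magnitude in liver. Crot, the peroxisomal carnitine octanoyltransferase that readies chain-shortened acyl groups for export, had the highest mean level in both tissues with each table's own feature length, at 53.0 ± 14.2 CPM per kb of feature length in liver and 31.2 ± 9.94 in kidney (SD, n = 5). In liver Slc25a20 (19.8 ± 4.45 CPM per kb), Cpt2 (19.3 ± 5.13) and Cpt1a (16.0 ± 4.56) followed and did not differ beyond their spread. Crat, the acetyltransferase that makes acetylcarnitine, came next at 8.68 ± 2.70 CPM per kb. Slc22a5 stood far lower, at 1.43 ± 0.484 CPM per kb, and Cpt1b, the muscle form of carnitine palmitoyltransferase 1, lowest at 0.123 ± 0.0694.

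In kidney Cpt1a came next at 22.7 ± 4.47 CPM per kb, followed by Cpt2 at 15.2 ± 3.37. Slc25a20 (8.91 ± 1.74 CPM per kb), Slc22a5 (8.67 ± 1.30) and Crat (6.43 ± 1.16) formed a lower group whose neighbours did not differ beyond their spread. The carnitine transporter Slc22a5 thus had Crat and the barely detected Cpt1b below it in kidney and Cpt1b alone below it in liver, at 26.6 ± 4.00 CPM in kidney and 4.40 ± 1.49 in liver. The tables were counted with different feature lengths (4300 and 2640 bases for Cpt1a, 1783 and 1221 for Slc25a20, 3071 in both for Slc22a5), so levels are set side by side across tissues and not tested. With the other table's length, Cpt1a stood at 9.82 CPM per kb in liver and 37.0 in kidney, and Slc25a20 at 13.6 and 13.0, so that Cpt1a and not Crot came first in kidney.

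**Figure D1:**
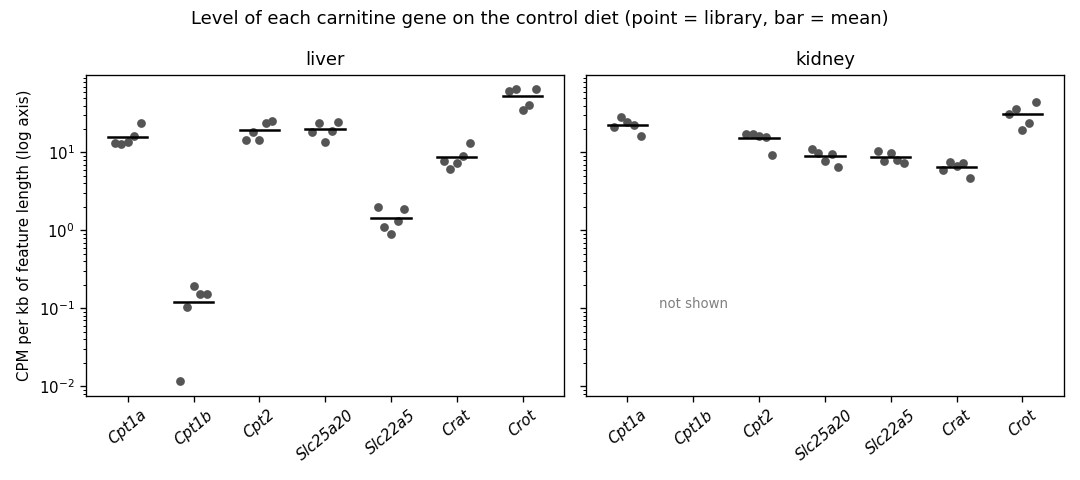
Level of each gene on the control diet in liver (left) and kidney (right), in CPM per kb of feature length on a log axis, with 1 point per library (n = 5) and a bar at the mean. Crot has the highest mean in both tissues with these lengths (in kidney Cpt1a, at 37.0 CPM per kb, passes it with the other table's length), Cpt1b is lowest in liver at 0.123 CPM per kb, and Slc22a5 lies at 1.43 CPM per kb in liver and 8.67 in kidney; Cpt1b in kidney is not shown.

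In liver, all 7 genes averaged higher on the ketogenic than on the control diet, by 1.34 to 3.04 fold, and none passed the test over all genes. The median log2 change was 0.69, against -0.02 over the 13374 genes tested. Cpt1a, the liver form of carnitine palmitoyltransferase 1 and the entry step of the shuttle, stood at 35.2, 34.1, 36.3, 42.6 and 62.9 CPM in control replicates 0 to 4. It ranged from 57.0 over a median of 76.2 to 82.1 CPM on the ketogenic diet. Control replicate 4 lay within the ketogenic range, and the other 4 control libraries lay below all 7 ketogenic libraries. The log2 change was 0.78 ± 0.19 (SE, edgeR quasi-likelihood test, adjusted p = 0.224), a rank of 20 by p among all genes tested.

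Cpt1b stood at 0.0340, 0.300, 0.554, 0.442 and 0.445 CPM in the control livers, which rests on 1 to 16 counts per library. On the ketogenic diet it ranged from 0.465 over 1.12 to 1.73 CPM, on 8 to 49 counts. The groups overlapped, since 1 control library exceeded the lowest ketogenic value, and the log2 change was 1.60 ± 0.51 (adjusted p = 0.341). Per kb, Cpt1b made up 0.767% ± 0.467 of the sum of Cpt1a and Cpt1b on the control diet (SD, n = 5), 0.921% ± 0.487 on the high-fat diet (n = 6) and 1.34% ± 0.534 on the ketogenic diet (n = 7). Cpt1b is also a gene of skeletal muscle and brown fat. The summed level of 9 muscle markers was 0.191 to 11.9 CPM in control, 0.0324 to 0.757 in high-fat and 0.0295 to 1.98 in ketogenic livers, with each of the 9 at 0 in some libraries, from 3 of 18 for Mylpf (at most 4.42 CPM) and 4 for Myh4 (at most 4.99 CPM) to 17 for Tnnc2. The 9 adipocyte markers summed to 28.6 to 174 CPM in control, 49.5 to 153 in high-fat and 107 to 212 in ketogenic livers, mostly from Elovl3, a fatty acid elongase that hepatocytes also express. The brown fat gene Ucp1 and the leptin gene Lep were at 0 in all 18 liver libraries, Adipoq and Retn in 17 and Plin1 in 14. Cfd and Cidea were at 0 in 1 library each and reached 30.2 and 18.3 CPM. Between the ketogenic and control livers Cfd had a log2 change of 2.93 ± 1.03 (adjusted p = 0.397), Cidea 1.25 ± 0.88, Elovl3 0.54 ± 0.35 and Adrb3 -0.04 ± 0.58. The part of other cells in the values of Cpt1b was not tested beyond these levels.

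Of the inner membrane steps, Slc25a20 stood at 22.3, 28.8, 16.6, 23.2 and 30.1 CPM in the control livers and ranged from 27.6 over 35.0 to 37.6 CPM on the ketogenic diet. Control replicates 1 and 4 lay above the lowest ketogenic library, and the log2 change was 0.50 ± 0.16 (adjusted p = 0.362). Cpt2 stood at 34.1, 43.7, 34.7, 56.1 and 60.7 CPM in the control livers and from 50.9 over 59.4 to 68.9 on the ketogenic diet, with the control replicates 3 and 4 inside the ketogenic range (log2 change 0.42 ± 0.16, adjusted p = 0.418).

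The carnitine transporter Slc22a5 was the 1 gene of the 7 whose ketogenic and control livers did not overlap, against 0.329% of all genes tested that were higher without overlap. It stood at 6.08, 3.36, 2.73, 4.00 and 5.81 CPM on the control diet and from 6.11 over 9.66 to 11.8 CPM on the ketogenic diet, so the gap between the groups was narrow. The log2 change was 1.05 ± 0.27, a fold of 2.07 (adjusted p = 0.224).

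The acyltransferases outside the shuttle proper had the following levels. Crat stood at 38.6, 29.8, 35.6, 44.5 and 64.1 CPM on the control diet and from 47.1 over 59.9 to 64.5 CPM on the ketogenic diet. As with Cpt1a, control replicate 4 alone overlapped the ketogenic libraries (log2 change 0.45 ± 0.19, adjusted p = 0.480). Crot stood at 331, 351, 189, 223 and 352 CPM on the control diet and from 286 over 472 to 545 CPM on the ketogenic diet. The lowest of these was ketogenic replicate 6, and the other 6 ketogenic livers lay above all 5 controls (log2 change 0.69 ± 0.23, adjusted p = 0.375).

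By edgeR's quasi-likelihood test with Benjamini-Hochberg adjustment, 0 of the 7 genes and 0% of all genes were called between the ketogenic and control livers. At an unadjusted p under 0.05 and higher on the ketogenic diet were 7 of 7, against 4.36% of all genes. DESeq2 called 76 genes, among them Cpt1a (adjusted p = 0.0233) and Slc22a5 (adjusted p = 0.0323). Without control replicate 4, edgeR called 22 genes, among them Cpt1a with a log2 change of 0.96 (adjusted p = 0.0332), and without high-fat replicate 5 or ketogenic replicate 6 it called 14 and 2 genes, with 0 of the 7. In this comparison the authors' deposited false discovery rates were 0.0530 for Slc22a5, 0.0971 for Cpt1b, 0.141 for Cpt1a and 0.252 for Crot. The rate was 0.836 for Slc25a20 and higher still for Cpt2 and Crat, so all 7 genes lay above 0.05. Among all genes, 231 had a deposited rate under 0.05.

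**Figure D2:**
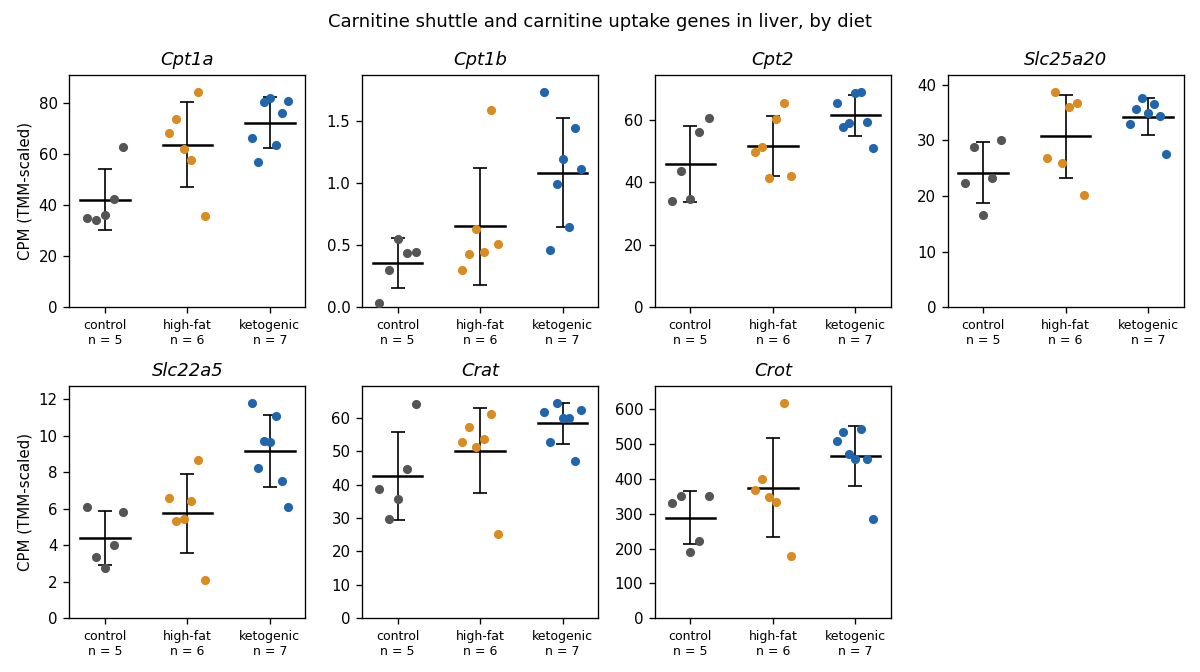
CPM of the 7 genes in each liver library (points) by diet, with the mean (bar) and SD (whiskers) of each group, n = 5, 6 and 7. The ketogenic mean is the highest of the 3 in every panel, and only Slc22a5 shows no overlap between control (at most 6.08 CPM) and ketogenic livers (at least 6.11 CPM).

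In kidney, Slc25a20 rose on the ketogenic diet, and 4 of the other 5 genes tested averaged 1.33 to 1.55 fold of the control level without passing the test over all genes. Crot was the exception, at 1.07 fold. The median log2 change of the 6 genes was 0.45, against 0.02 over the 15074 genes tested. Called as higher were 1 of 6, against 0.285% of all genes, and at an unadjusted p under 0.05 and higher 5 of 6, against 5.28%.

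Slc25a20 stood at 19.6, 17.4, 13.8, 16.9 and 11.7 CPM in control replicates 0 to 4 and at 21.6, 35.1, 20.2, 20.03, 22.1, 32.1 and 31.7 CPM in ketogenic replicates 0 to 6. All 7 ketogenic kidneys lay above all 5 controls. Of the ketogenic kidneys, 3 lay above 31 CPM and 4 between 20.03 and 22.1, just over the highest control. The log2 change was 0.72 ± 0.16, a fold of 1.64 (adjusted p = 0.0454). This call stood close to the threshold: leaving out 1 library ended it in 13 of 18 cases, namely any of the 5 controls, high-fat replicates 0, 1, 3 or 5, and ketogenic replicates 0, 1, 5 or 6, with adjusted p between 0.0547 and 0.156 and log2 changes between 0.61 and 0.79. It also ended with RLE size factors (adjusted p = 0.0621), with control and ketogenic libraries alone in the fit (adjusted p = 0.0778) and without mitochondrial genes (log2 change 0.70, adjusted p = 0.0687).

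Cpt2 was the second gene without overlap, where 0.531% of all genes were higher without overlap. It stood at 41.5, 41.4, 38.6, 37.8 and 22.2 CPM on the control diet and from 44.8 over 60.5 to 67.0 CPM on the ketogenic diet (a change of 0.63 ± 0.14 in log2, adjusted p = 0.0523). Cpt1a stood at 92.0, 123, 106, 97.6 and 70.5 CPM on the control diet and from 102 over 130.04 to 184 CPM on the ketogenic diet. Control replicates 1 and 2 lay above ketogenic replicate 3, the lowest, so the groups overlapped (log2 change 0.45 ± 0.16, adjusted p = 0.379).

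Slc22a5 had the narrowest spread on the ketogenic diet, from 30.9 over 35.6 to 39.0 CPM, and stood at 31.6, 23.8, 30.1, 24.9 and 22.7 CPM on the control diet. Only control replicate 0 exceeded the lowest ketogenic library (log2 change 0.41 ± 0.11, adjusted p = 0.165). Crat stood at 31.9, 40.6, 36.6, 39.0 and 25.1 CPM on the control diet and from 39.3 over 48.2 to 54.5 CPM on the ketogenic diet, with control replicate 1 above the lowest ketogenic library (log2 change 0.46 ± 0.12, adjusted p = 0.145). DESeq2 called 105 genes in this comparison, among them 3 of the 6, Slc25a20, Cpt2 (adjusted p = 0.0130) and Slc22a5 (adjusted p = 0.0380).

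Crot stood at 172, 198, 107, 129.8 and 244 CPM on the control diet and from 136 over 162 to 286 CPM on the ketogenic diet, with broad overlap. The log2 change was 0.10 ± 0.18, with a 95% confidence interval of -0.28 to 0.48 (adjusted p = 0.927), and its sign turned without control replicate 2 (-0.03) or ketogenic replicate 6 (-0.04).

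Levels of tubule markers in these kidneys were as follows. The 7 markers from the loop of Henle to the collecting duct summed to 1058 to 1419 CPM in control, 796 to 1488 in high-fat and 748 to 1196 in ketogenic kidneys, and the 8 proximal tubule markers to 1918 to 3415, 2304 to 3531 and 2521 to 3674 CPM, with no marker at 0 in any library. Between ketogenic and control kidneys 0 of these 15 were called. Umod, of the thick ascending limb, had a log2 change of -0.64 ± 0.19 (adjusted p = 0.212), and of the proximal tubule markers Aqp1 had -0.36 ± 0.12 (adjusted p = 0.355) and Slc13a3 0.38 ± 0.16 (adjusted p = 0.514). On the ketogenic against the high-fat diet, 2 of the 7 markers from the loop of Henle to the collecting duct had log2 changes above 0. Calb1, of the distal tubule, had -0.81 ± 0.15 (adjusted p = 0.0467), Aqp2 0.74 ± 0.19 (adjusted p = 0.312) and Slc12a1 0.21 ± 0.20. Against control, Calb1 had 0.60 ± 0.17 on the high-fat and -0.21 ± 0.16 on the ketogenic diet. The 9 adipocyte markers summed to 3.47 to 18.6 CPM in control, 1.47 to 34.6 in high-fat and 1.56 to 8.38 in ketogenic kidneys, and 6 of the 7 tested had log2 changes below 0 against control (median -0.76), with Ucp1 at -3.21 ± 1.26 (adjusted p = 0.488) and 0 called. On the ketogenic against the high-fat diet 0 of the 7 lay above 0 (median -1.19), against 51.9% of all genes, with Ucp1 at -4.89 ± 1.18 (adjusted p = 0.359) and 0 called. On the high-fat diet against control 7 of 7 lay above 0 (median 0.49), against 52.7% of all genes, and 0 were called. The part of tubule makeup and of fat in the values of the carnitine genes was not tested. In the authors' deposited table the false discovery rates of the 6 genes in this comparison were 0.296 for Slc25a20, 0.416 for Cpt2 and from 0.567 to 0.951 for the others.

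**Figure D3:**
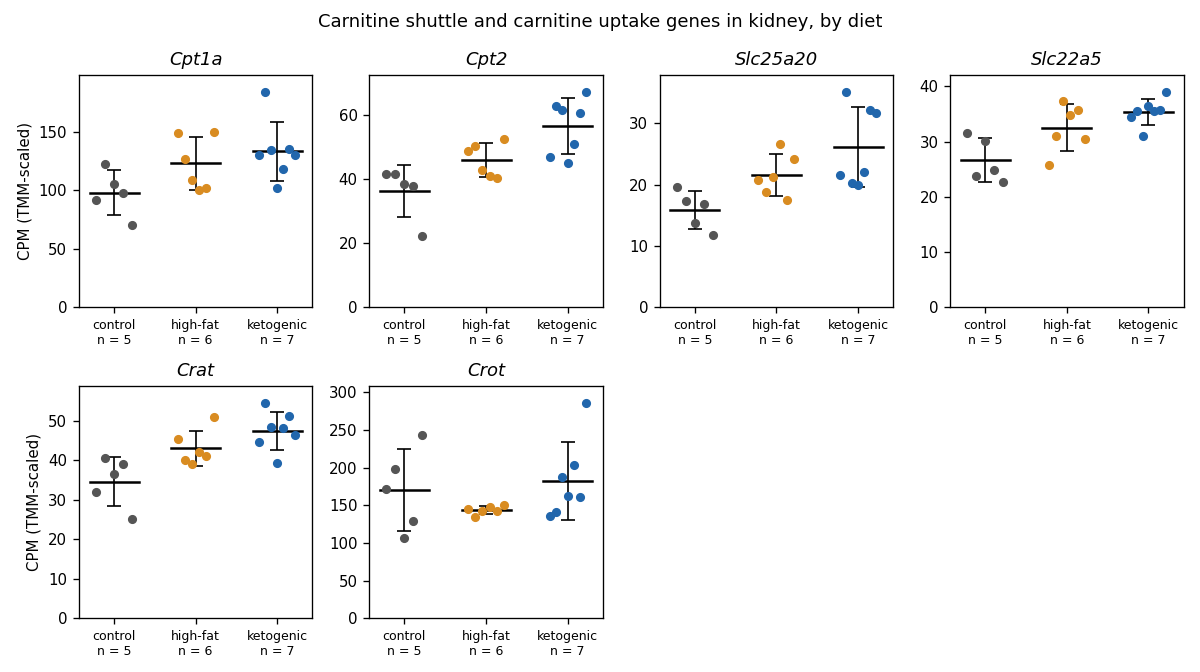
CPM of 6 genes in each kidney library (points) by diet, with the mean (bar) and SD (whiskers), n = 5, 6 and 7. Control and ketogenic kidneys are apart for Slc25a20 (at most 19.6 against at least 20.03 CPM) and Cpt2 (at most 41.5 against at least 44.8 CPM), while Crot overlaps across all 3 diets and is narrowest on the high-fat diet.

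The high-fat diet, which holds 75% of its energy as fat but is not ketogenic, gave smaller differences from control. The high-fat mean lay between the control and ketogenic means for 7 of 7 genes in liver and 5 of 6 in kidney, Crot in kidney being the exception. The share of all genes tested with this order was not worked out, so the count is not read as particular to these genes. Both comparisons with control use the same control libraries, so their values are set side by side. In liver the log2 change on the high-fat diet was 0.59 ± 0.19 for Cpt1a (adjusted p = 0.681), 0.88 ± 0.52 for Cpt1b, 0.35 ± 0.17 for Slc25a20 and 0.17 ± 0.16 for Cpt2. It was 0.38 ± 0.27 for Slc22a5, 0.24 ± 0.20 for Crat and 0.37 ± 0.24 for Crot. Cpt1a ranged from 35.8 over 65.2 to 84.3 CPM in the high-fat livers and Slc22a5 from 2.11 over 5.90 to 8.68, each with its lowest value, in high-fat replicate 5, inside or under the control range. In this liver comparison 0 of 7 genes and 0% of all genes were called by edgeR. At an unadjusted p under 0.05 and higher was 1 of 7, Cpt1a, against 2.57% of all genes, and DESeq2 called 1 gene, none of the 7.

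In the high-fat kidneys Slc25a20 ranged from 17.5 over 21.03 to 26.7 CPM (log2 change against control 0.44 ± 0.16, adjusted p = 0.749) and Cpt2 from 40.2 over 45.7 to 52.5 CPM (0.34 ± 0.15, adjusted p = 0.857). The log2 change was 0.33 ± 0.16 for Cpt1a, 0.29 ± 0.12 for Slc22a5 and 0.32 ± 0.12 for Crat, and all 6 high-fat kidneys lay above the control mean for Cpt1a, Cpt2, Slc25a20 and Crat. Crot kept within 134 to 151 CPM, so all 6 high-fat kidneys lay below its control mean of 170.1 CPM (log2 change -0.24 ± 0.19, adjusted p = 0.998). By edgeR 0 of 6 genes were called, against 0.0133% of all genes. At an unadjusted p under 0.05 and higher were 4 of 6, Slc25a20, Cpt2, Slc22a5 and Crat, against 3.73% of all genes, and DESeq2 called 15 genes, none of the 6.

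Set directly against the high-fat diet, the ketogenic diet gave log2 changes of 0.16 to 0.72 in liver and 0.12 to 0.34 in kidney, all above 0. The largest were those of Cpt1b in liver (0.72 ± 0.46) and Crot in kidney (0.34 ± 0.18). Slc22a5 in liver had 0.67 ± 0.25 (95% confidence interval 0.15 to 1.18, adjusted p = 0.999), with all 7 ketogenic livers above the high-fat mean of 5.75 CPM. Cpt1a had 0.18 ± 0.17 in liver (interval -0.18 to 0.54) and 0.12 ± 0.15 in kidney (interval -0.19 to 0.42), and Cpt2 in kidney 0.30 ± 0.14 (interval 0.02 to 0.58). By edgeR 0 of 7 genes in liver and 0 of 6 in kidney were called, against 0% and 0.0464% of all genes. At an unadjusted p under 0.05 and higher were 1 gene in liver (Slc22a5) and 1 in kidney (Cpt2), against 1.66% and 2.08%. DESeq2 called 1 gene in liver and 30 in kidney, none of the carnitine genes.

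**Figure D4:**
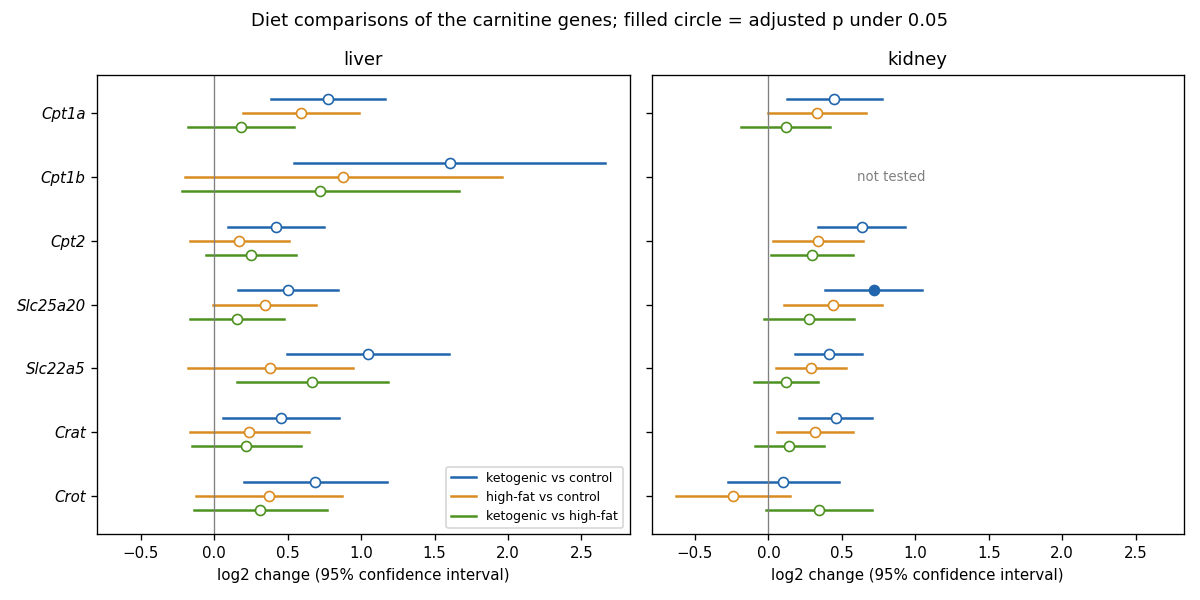
Log2 change of each gene with its 95% confidence interval in the 3 comparisons of diets, for liver (left) and kidney (right), from edgeR fits over all 18 libraries of a tissue; a filled circle has an adjusted p under 0.05. The 1 filled circle is Slc25a20 in the ketogenic against control kidney (0.72), and Crot in kidney is the gene whose interval for that comparison covers 0.

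Fitted as a trend over the fat share of the diet (12%, 75% and 90% of energy), the log2 change over the whole range was 0.77 ± 0.18 for Cpt1a in liver (adjusted p = 0.212), 0.93 ± 0.27 for Slc22a5, 1.51 ± 0.50 for Cpt1b and 0.64 ± 0.22 for Crot. It was 0.48 ± 0.16 for Slc25a20, 0.42 ± 0.18 for Crat and 0.38 ± 0.15 for Cpt2. In kidney it was 0.68 ± 0.15 for Slc25a20 (adjusted p = 0.0692), 0.59 ± 0.14 for Cpt2 (adjusted p = 0.104), 0.44 ± 0.12 for Crat, 0.44 ± 0.15 for Cpt1a, 0.40 ± 0.11 for Slc22a5 and 0.02 ± 0.18 for Crot. By edgeR 0 of 7 and 0 of 6 genes were called, against 0% of genes in liver and 0.166% in kidney. At an unadjusted p under 0.05 and higher were 7 of 7 against 4.4% in liver and 5 of 6 against 5.41% in kidney. DESeq2 called 60 genes in liver, among them Cpt1a (adjusted p = 0.0166). In kidney it called 79, among them Cpt2, Slc25a20 and Slc22a5 (adjusted p = 0.0349, 0.0208 and 0.0349). Without control replicate 4 or high-fat replicate 5 edgeR called 48 and 23 genes in liver, among them Cpt1a (adjusted p = 0.0214 and 0.0294). The carbohydrate share fell from 78% on the control to 10% on the high-fat diet, so trends over fat and over carbohydrate cannot be told apart. The trend also uses the same libraries as the comparisons above and is no separate evidence.

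The difference between the tissues in the ketogenic response was tested in 1 fit over all 36 libraries and 15430 genes. The labels do not state whether liver and kidney libraries come from the same mice. The fit had no term for the mouse and treated all libraries as independent, so its errors and intervals leave out any such pairing. Slc22a5 had a kidney minus liver log2 difference of -0.66 ± 0.28, that is, a larger value in liver (95% confidence interval -1.22 to -0.10, adjusted p = 0.558). Crot had -0.61 ± 0.31 (interval -1.23 to 0.01), Cpt1a -0.35 ± 0.26 (interval -0.87 to 0.16) and Crat -0.02 ± 0.24 (interval -0.50 to 0.46). Cpt2 and Slc25a20 had 0.19 ± 0.23 (interval -0.27 to 0.65) and 0.18 ± 0.24 (interval -0.30 to 0.66). For Cpt1b the value was -0.42 ± 1.04, on the few and shared kidney reads named above. Cpt1b passed the filter on low counts in this fit only through its liver libraries, so its value is no measure of a tissue difference. It is still counted among the 7 genes here. By edgeR 0 of 7 genes and 0% of all genes were called, at an unadjusted p under 0.05 and larger in liver was 1 of 7 (Slc22a5) against 4.13% of all genes, and DESeq2 called 45 genes, none of the 7. The call of Slc25a20 in kidney and not in liver is therefore not a shown difference between the tissues.

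Within a diet, the genes often had their extremes in the same library. How often these libraries were extreme over all genes was not counted, so this is not shown to be particular to the 7 genes. Among the high-fat livers, replicate 4 was highest for 6 of the 7 genes (all but Slc25a20) and replicate 5 lowest for 5 of them (Cpt1a, Slc25a20, Slc22a5, Crat and Crot). Among the control livers, replicate 4 was highest for 5 genes, and among the ketogenic livers replicate 6 was lowest for Cpt2, Crot, Slc22a5 and Slc25a20. In kidney, control replicate 4 was lowest for 5 of 6 genes and highest for the sixth, Crot. Over the 18 libraries of a tissue, which share their diets, the log2 CPM of pairs of the 7 genes had Pearson r from 0.375 to 0.887 in liver (median 0.715, 21 pairs). In kidney the 10 pairs without Crot had r from 0.293 to 0.893 (median 0.746), and the 5 pairs with Crot from -0.167 to 0.101.

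Among the 2 genes whose log2 CPM followed each of the 7 most closely over the 18 libraries of a tissue were, in liver, Gyk and Acot1 for Slc22a5 (r = 0.957 and 0.924), Acadm and Aldh3a2 for Slc25a20 (0.943 and 0.912), Nfe2l1 for Cpt1a (0.924) and Mccc2 for Cpt2 (0.920). For Crot they were Gyk and Hadhb (0.909 and 0.906), for Cpt1b Optn and Slc25a42 (0.906 and 0.895) and for Crat Plin2 and Slc13a4 (0.895 and 0.886). In kidney they were Decr1 and Acot1 for Slc25a20 (0.923 and 0.894), Afg3l1 and Mob3b for Cpt1a (0.911 and 0.893), and Pex11a and Acot3 for Slc22a5 (0.848 and 0.846). The gene most like Cpt2 in kidney was Crat (0.890), followed by Acot1 (0.872), and those most like Crat were Cpt1a (0.893) and Cpt2 (0.890), while Crot had Mpv17l and Lypla1 (0.822 and 0.807). Reads of Acot1 and Acot3 may be shared with near-identical copies.

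The steps on either side of the shuttle were described by 6 lists of genes in the comparison of the ketogenic and control diets. Of the 9 genes of carnitine synthesis and other carnitine carriers, 4 were tested in liver and 6 in kidney, 0 were called in either tissue, and the median log2 change was 0.15 and 0.08. Bbox1, which makes the last step of carnitine synthesis, had 0.19 ± 0.18 in liver, and Aldh9a1, an earlier step, 0.25 ± 0.14 in liver and 0.18 ± 0.17 in kidney. Slc16a9, a carnitine exporter, had -0.21 ± 0.25 in liver. In kidney Cpt1c, the form of neurons, had 0.71 ± 0.44 and Slc22a4, a transporter close to Slc22a5, -0.16 ± 0.12 (adjusted p = 0.689 and 0.760).

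Of the 9 genes of malonyl-CoA control, all tested in both tissues, 0 were called in liver, where the median log2 change was -0.31, and 1 rose in kidney, where it was 0.15, against 0% and 0.285% of all genes called as higher. Acaca, the acetyl-CoA carboxylase of fatty acid synthesis, had -1.45 ± 0.32 in liver (adjusted p = 0.224) and -0.44 ± 0.20 in kidney (adjusted p = 0.566). The gene that rose in kidney was Prkag2, a regulatory subunit of AMP-activated protein kinase, with 0.52 ± 0.11 (adjusted p = 0.0345), and its value in liver was -0.43 ± 0.17 (adjusted p = 0.462). Prkaa2, a catalytic subunit of the same kinase, had -0.32 ± 0.12 in liver, and Mlycd, which breaks down malonyl-CoA, 0.25 ± 0.13 in kidney. Of the 8 acyl-CoA synthetases and outer membrane channels, 7 were tested in each tissue and 0 called, with medians of -0.13 in liver and -0.05 in kidney. Acsl1, which makes the acyl-CoA that enters the shuttle, had 0.82 ± 0.19 in liver (adjusted p = 0.224) and 0.72 ± 0.17 in kidney (adjusted p = 0.0559), while Acsl5 had -0.29 ± 0.16 and Vdac1 -0.18 ± 0.17 in liver, and Acsl4 -0.31 ± 0.15 and Vdac3 -0.18 ± 0.11 in kidney.

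All 15 genes of mitochondrial beta-oxidation were tested in both tissues. Their log2 changes lay above 0 for 15 of 15 in liver (median 0.31) and 13 of 15 in kidney (median 0.22), against 47.3% and 53.2% of all genes, and 0 were called in either tissue. Acadm, the medium-chain acyl-CoA dehydrogenase, had 0.66 ± 0.19, Acadl 0.45 ± 0.16 and Etfdh 0.50 ± 0.18 in liver (adjusted p = 0.264 for the first). In kidney Acaa2, the thiolase of the last step, had 0.66 ± 0.15 (adjusted p = 0.0603), Decr1 0.49 ± 0.14 and Eci1 0.45 ± 0.14. Of 11 genes of peroxisomal beta-oxidation 0 were called in liver (median 0.33) and 2 rose in kidney (median 0.24), against 0% and 0.285% of all genes called as higher. They were Acaa1b, a peroxisomal thiolase, with 0.88 ± 0.14, and Pex11a, a factor of peroxisome division, with 0.63 ± 0.10 (adjusted p = 0.00238 for both). Ehhadh had 0.62 ± 0.16 in kidney, and in liver Acaa1a had 0.67 ± 0.19 and Pex11a 0.80 ± 0.23.

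Of 10 fatty acid receptors and coactivators, all tested, 0 were called in either tissue (median 0.14 in liver and 0.05 in kidney). Ppara, the receptor of many genes of fatty acid oxidation, had 0.34 ± 0.19 in liver. Ppard had -1.21 ± 0.28 in liver (adjusted p = 0.224) and -0.46 ± 0.19 in kidney (adjusted p = 0.529). The coactivator gene Ppargc1a had -0.40 ± 0.18 in liver, and Ppargc1b and Rxra had 0.42 ± 0.20 and 0.19 ± 0.12 in kidney. At an unadjusted p under 0.05, the liver counts were 7 higher of 15 for mitochondrial and 5 higher of 11 for peroxisomal beta-oxidation, 4 lower of 9 for malonyl-CoA control, 1 higher of 7 for the synthetases, 2 lower of 10 for the receptors and 0 of 4 for carnitine synthesis, against 4.36% of all genes higher and 5.02% lower. In kidney they were 5 higher of 15 and 3 higher of 11 for the 2 lists of beta-oxidation, 1 higher and 1 lower of 9 for malonyl-CoA control, 1 higher of 7 for the synthetases, 1 higher and 1 lower of 10 for the receptors and 0 of 6 for carnitine synthesis, against 5.28% of all genes higher and 3.07% lower.

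**Figure D5:**
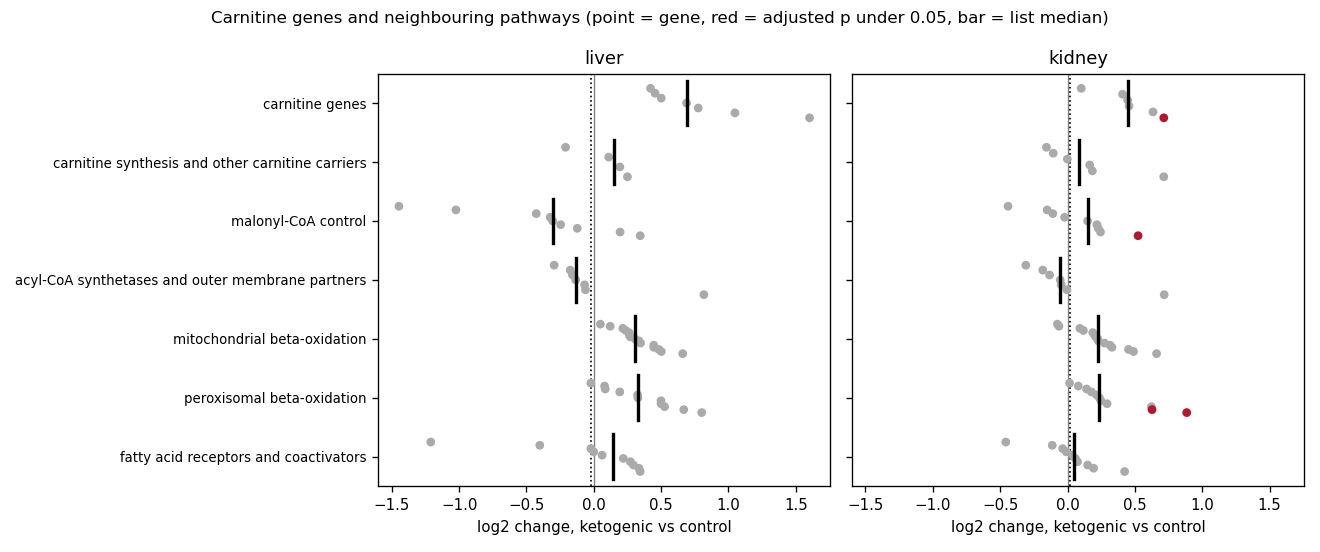
Log2 change between the ketogenic and control diets of each gene (points) in the carnitine genes and 6 neighbouring lists, for liver (left) and kidney (right), with a bar at the list's median and a dotted line at the median of all genes tested. Red points have an adjusted p under 0.05 (none in liver, and Slc25a20, Prkag2, Acaa1b and Pex11a in kidney); the carnitine genes have the highest list median in both tissues, 0.69 and 0.45.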

How the data were processed

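RNA had been amplified with the NuGEN Ovation V2 kit, which primes with random and poly-T primers, and sequenced on an Illumina HiSeq in barcoded pools, per the labels' protocols. The submitters' processing notes list TopHat2 (2.0.11), Subread, featureCounts, edgeR, DESeq and the build mm9, with no roles, and how strand was handled in counting is not given in the sources used here. The authors deposited 1 table of raw counts per tissue. The kidney columns were handled as estimated counts but held whole numbers as deposited by the authors, so nothing was rounded. The tables also hold the authors' deposited log2 fold changes and q-values (false discovery rates), and 90 columns of per-sample values that were not used.

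The 7 genes and the lists of other genes were chosen with earlier results of these data known. Per tissue, genes passing filterByExpr (minimum count 10, by diet) were scaled by TMM and tested with edgeR's robust quasi-likelihood fit over all 18 libraries (edgeR 4.0.16, limma 3.58.1, R 4.3.3), with Benjamini-Hochberg adjustment over all genes tested and a threshold of 0.05. "Called" means past that threshold, errors of log2 changes are SE, and intervals are 95%. The tissue difference was fitted over 36 libraries on the 31812 genes in both tables. The scripts were tested on simulated data. Correlations use log2 CPM with a prior count of 2. Alternatives were RLE size factors, no filter, DESeq2 1.42.0, the replicate number as a block, only the 2 diets compared, each library left out, and, chosen after seeing the data, mitochondrial genes left out. By rule all 7 genes were to be named in each comparison. So were the 3 genes of smallest p per list and tissue and the 2 genes most correlated with each of the 7. Some genes that this rule names are not reported here.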

Additional observations from a re-analysis of the deposited data

Results flagged for a closer look

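In 42 groups of libraries (7 genes, 2 tissues and 3 diets), 6 held a library whose gap to its nearest neighbour passed Dixon's 95% limit. For independent, normally spread values chance flags about 1 group in 20. These groups share libraries and their genes correlate, so the count was not tested against chance. Cpt1a stood at 184 CPM in kidney ketogenic replicate 1, against 135 in the next highest library. Cpt2 stood at 22.2 CPM in kidney control replicate 4, against 37.8 in the next lowest. Crat stood at 25.2 CPM in liver high-fat replicate 5, against 51.2 in the next lowest. Crot stood at 286 CPM in liver ketogenic replicate 6, against 457 in the next lowest. Cpt1b stood at 1.59 CPM in liver high-fat replicate 4, against 0.632 in the next highest, and at 0.292 CPM in kidney ketogenic replicate 0, against 0.113, the latter on at most 9 counts.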

How the results depend on the processing

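Of 1522 values of the 7 genes' log2 changes under alternatives, 1505 kept their direction and 17 turned, all near 0 and none past the threshold. For Crot in kidney the trend turned without the filter (-0.016), and without control replicates 2 (-0.11) or 3 (-0.062) or ketogenic replicates 2 (-0.0043), 4 (-0.020) or 6 (-0.11), and the ketogenic against control change without control replicate 2 (-0.035) or ketogenic replicate 6 (-0.041). Over all libraries left out in turn, these spanned -0.11 to 0.20 and -0.041 to 0.26. The tissue difference of Crat turned without liver control replicates 0 (0.011), 1 (0.079) or 2 (0.030), kidney control replicates 1 (0.043) or 3 (0.029), or kidney ketogenic replicate 3 (0.026), over a span of -0.24 to 0.079. The cause was not tested for these or for the changed counts.

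DESeq2 called 76 genes between ketogenic and control livers (2 of the 7), 1 gene for high-fat against control, 1 for ketogenic against high-fat and 60 for the trend (1 of the 7). In kidney it called 105 (3 of the 6), 15, 30 and 79 (3 of the 6), and 45 for the tissue difference. Between ketogenic and control kidneys, 0 of the 6 were called with RLE size factors, with only the 2 diets compared or without mitochondrial genes, and with only the 2 diets compared 4 genes were called in liver. With the other table's feature length, Cpt1a stood at 9.82 CPM per kb in liver and 37.0 in kidney, and Slc25a20 at 13.6 and 13.0.

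Leaving out 1 library gave 0 to 22 genes called between ketogenic and control livers (0 to 1 of the 7), 0 to 1 for high-fat against control and 0 to 48 for the trend (0 to 1 of the 7). The highest counts came without control replicate 4. In kidney it gave 21 to 56 genes between ketogenic and control (0 to 1 of the 6), 2 to 3 for high-fat against control, 2 to 10 for ketogenic against high-fat and 8 to 33 for the trend. It gave 0 to 33 for the tissue difference, highest without liver control replicate 4.

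Deviations of same-numbered libraries of different diets had median correlations of 0.048 in liver and 0.109 in kidney (16 pairs each, from -0.22 to 0.395), against 0.012 and -0.027 for different numbers (91 pairs each). All 3 pairs of some numbers were above 0.2 (liver 2, kidney 4) and other numbers had pairs below 0, so the numbers were not taken to pair the samples. With the replicate block, 81 genes were called between ketogenic and control livers (2 of the 7, Slc22a5 with adjusted p = 0.0116 and Crot with 0.0313) and 22 for the trend. In kidney the block gave 0 of the 6 between ketogenic and control (Slc25a20 had 0.60, adjusted p = 0.0589), 4 genes for high-fat against control, 3 for ketogenic against high-fat and 41 for the trend, and it gave 39 for the tissue difference. It turned Crot in kidney to -0.020 (ketogenic against control) and -0.079 (trend) and the tissue difference of Slc25a20 to -0.058. Counts of 1 to 16 per control liver limit Cpt1b.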
